A study of Mus musculus with 4 samples.

Results

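The genes described here build the acidic interior of the lysosome: 17 genes of the vacuolar proton pump, 6 genes of the lysosomal membrane, 8 genes of hydrolases and other lumenal proteins, and 4 regulators or autophagy genes. These 35 genes were taken from a fixed list of symbols, chosen with earlier results of these data known. Each was read from the RefSeq transcript with the highest mean raw count among its transcripts. They are 35 of the 24422 named genes in the files and 35 of the 13136 genes that passed the filter on low counts, so all of them could be tested. The cells were RAW 264.7, a mouse macrophage line, grown in medium with 5.5 mmol/L glucose and 10% serum and used at passages 3 to 6. In 2 libraries the cells stably carried the empty plasmid pcDNA 3.1(+), and in 2 they stably expressed Dnm3os, a long noncoding RNA that the series title calls induced by diabetes. Every group therefore went through transfection and stable selection, and the labels say neither whether each line was a clone or a pool nor whether a separate culture stands behind each library. The p-values below measure the spread between these libraries, which may be technical. The comparison asks whether expression of Dnm3os moves the genes of lysosomal acidification and digestion.

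The vacuolar ATPase is a rotary machine that spends ATP to push protons across the lysosomal membrane. Its V1 sector lies in the cytosol and hydrolyses ATP in the A and B subunits, while its V0 sector sits in the membrane and carries the protons through the ring of c subunits and the a subunit. The a subunit has several isoforms that differ in where the pump goes: a3, encoded by Tcirg1, is the form of lysosomes and of the bone-resorbing face of osteoclasts. The acid interior activates hydrolases, which macrophages use to digest what they engulf. Tfeb, Tfe3 and Mitf are related transcription factors that bind a short element, the CLEAR motif, in the promoters of many lysosomal genes.

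Promoter sequences show how these genes share, or do not share, that element. The 4 below are the 250 bases before the start site of the 4 called genes with the largest changes among those with an entry in the RefSeq promoter table (build GRCm38.p6), with GGGCGG (a GC box) on either strand or TCACGTG (the core of the CLEAR motif) in capitals. Wipi1 lies at chr11:109611390-109611639 on the minus strand, Npc2 at chr12:84773113-84773362 on the minus strand, Atp6v1a at chr16:44139260-44139509 on the minus strand and Atp6v0a1 at chr11:101010148-101010397 on the plus strand.
Wipi1: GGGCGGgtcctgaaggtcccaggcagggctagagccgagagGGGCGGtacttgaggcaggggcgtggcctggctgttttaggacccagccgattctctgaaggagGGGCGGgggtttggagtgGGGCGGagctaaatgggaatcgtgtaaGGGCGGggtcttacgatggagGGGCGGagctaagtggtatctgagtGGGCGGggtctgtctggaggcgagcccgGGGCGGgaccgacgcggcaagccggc
Npc2: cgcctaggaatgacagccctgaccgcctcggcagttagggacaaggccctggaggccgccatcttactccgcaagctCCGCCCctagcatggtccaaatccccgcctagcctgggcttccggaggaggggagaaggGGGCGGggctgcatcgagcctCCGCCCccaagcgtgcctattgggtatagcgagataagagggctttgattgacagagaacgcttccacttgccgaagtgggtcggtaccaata
Atp6v1a: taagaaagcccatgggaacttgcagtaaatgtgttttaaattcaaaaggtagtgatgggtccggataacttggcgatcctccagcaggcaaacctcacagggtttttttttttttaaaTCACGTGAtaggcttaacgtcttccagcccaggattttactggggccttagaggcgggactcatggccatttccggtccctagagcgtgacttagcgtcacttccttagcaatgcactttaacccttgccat
Atp6v0a1: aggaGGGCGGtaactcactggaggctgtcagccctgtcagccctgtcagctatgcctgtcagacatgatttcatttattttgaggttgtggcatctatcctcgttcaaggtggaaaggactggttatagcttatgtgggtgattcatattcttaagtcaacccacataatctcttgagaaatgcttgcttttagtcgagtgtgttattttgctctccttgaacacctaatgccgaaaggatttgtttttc
The Wipi1 window held 8 GC boxes at 67.2% GC and the Npc2 window held 3 at 62.0% GC. The Atp6v0a1 window held 1 at 43.6% GC, and the Atp6v1a window held none but carried the palindrome TCACGTGA at 46.4% GC. Of these 4 called genes, Atp6v1a is the one whose window held a CLEAR core.

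The CLEAR core was searched on both strands in the full windows of 300 bases, 250 before the start and 50 after it, for the 29 of 35 genes in the table. TCACGTG was found in 9 of the 29 (31.0%), against 4.29% of the 27025 genes with a window. The shorter E-box CACGTG, which every TCACGTG contains, was found in the same 9 genes, against 8.09% of all genes. The GC box GGGCGG was found in 23 of the 29 (79.3%), against 38.20% of all genes. The list holds genes known for this element, so its frequency here describes the list and is not a result about Dnm3os. The site nearest to the start of each gene follows, with 10 bases on either side and the core, or its palindrome, in capitals; these windows were added after the search.
Atp6v0b, chr4:117887332-117887358, minus strand: ggtcggcgcaTCACGTGcgccggtcag
Atp6v0d1, chr8:105566051-105566078, minus strand: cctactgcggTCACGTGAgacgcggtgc
Atp6v0e, chr17:26676388-26676415, plus strand: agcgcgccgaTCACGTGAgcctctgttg
Atp6v1a, chr16:44139374-44139401, minus strand: tttttttaaaTCACGTGAtaggcttaac
Lamp1, chr8:13159135-13159161, plus strand: cgtgaccacaTCACGTGcggaacggag
Mcoln1, chr8:3500463-3500490, plus strand: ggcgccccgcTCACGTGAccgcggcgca
Clcn7, chr17:25133387-25133414, plus strand: cgatgatagaTCACGTGAgacctgggcg
Gaa, chr11:119267812-119267838, plus strand: ttctgtgcgaTCACGTGtttgactctg
Glb1, chr9:114401019-114401045, plus strand: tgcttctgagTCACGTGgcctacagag
There were 15 such sites in the 9 genes, 4 of them in Lamp1 and 2 each in Atp6v0b, Mcoln1 and Clcn7. The coordinates are those of GRCm38.p6 and not of mm9, the build named in the submitters' processing notes. A match of letters is a description and does not show that a factor binds there.

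Library totals ran from 48480628 to 65610942 counts over all transcripts, and from 29329201 to 39640782 counts with 1 transcript kept for each gene. Dnm3os had 0 counts in both empty vector libraries and 208 and 260 counts in the Dnm3os libraries (adjusted p = 2.99e-14 by edgeR's quasi-likelihood test). Of 10 macrophage markers, 9 had at least 10 counts in every library, and their summed level was 9125 to 9285 CPM (counts scaled to library size) in the empty vector libraries and 10009 to 10505 CPM in the Dnm3os libraries. Most of that sum is Lyz2, and the markers went both ways: Lyz2, Csf1r, Itgam and Fcgr1 were called higher and Adgre1 and Cd68 lower. Of the markers of fibroblasts and of B cells, 0 of 7 and 0 of 6 reached 10 counts in all libraries, with Col1a2, Col3a1, Pdgfra, Cd79b, Ms4a1 and Ebf1 at 0. One T cell gene of the 6 matched (Lck), 1 of 5 endothelial and 2 of 5 dendritic genes reached it. In bulk RNA, fewer cells of a type and less RNA per cell cannot be told apart.

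Of the 35 genes, 8 passed the test between the groups, in both directions. Npc2, the lumenal cholesterol carrier, and Atp6v0a1, the a1 subunit of the pump, rose in the Dnm3os libraries. The a3 subunit gene Tcirg1, the pump genes Atp6v1a, Atp6v1h and Atp6ap2, the progranulin gene Grn and the autophagy gene Wipi1 fell. The other 27 did not pass the test (edgeR, two-sided, with p-values adjusted over all genes tested by the Benjamini-Hochberg method and a threshold of 0.05). Among all genes tested, 6.48% were called higher and 5.77% lower. Thus 2 of 35 higher is near the background and 6 of 35 lower lies above it. The 35 genes were chosen with earlier results of these data known, so these counts describe the list and do not test it. Among the 8917 genes whose mean level reached 10 CPM, 6.80% were called higher and 6.81% lower, and 34 of the 35 genes fall there, with 2 called higher and 5 lower (Wipi1 is below that level).

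**Figure D1:**
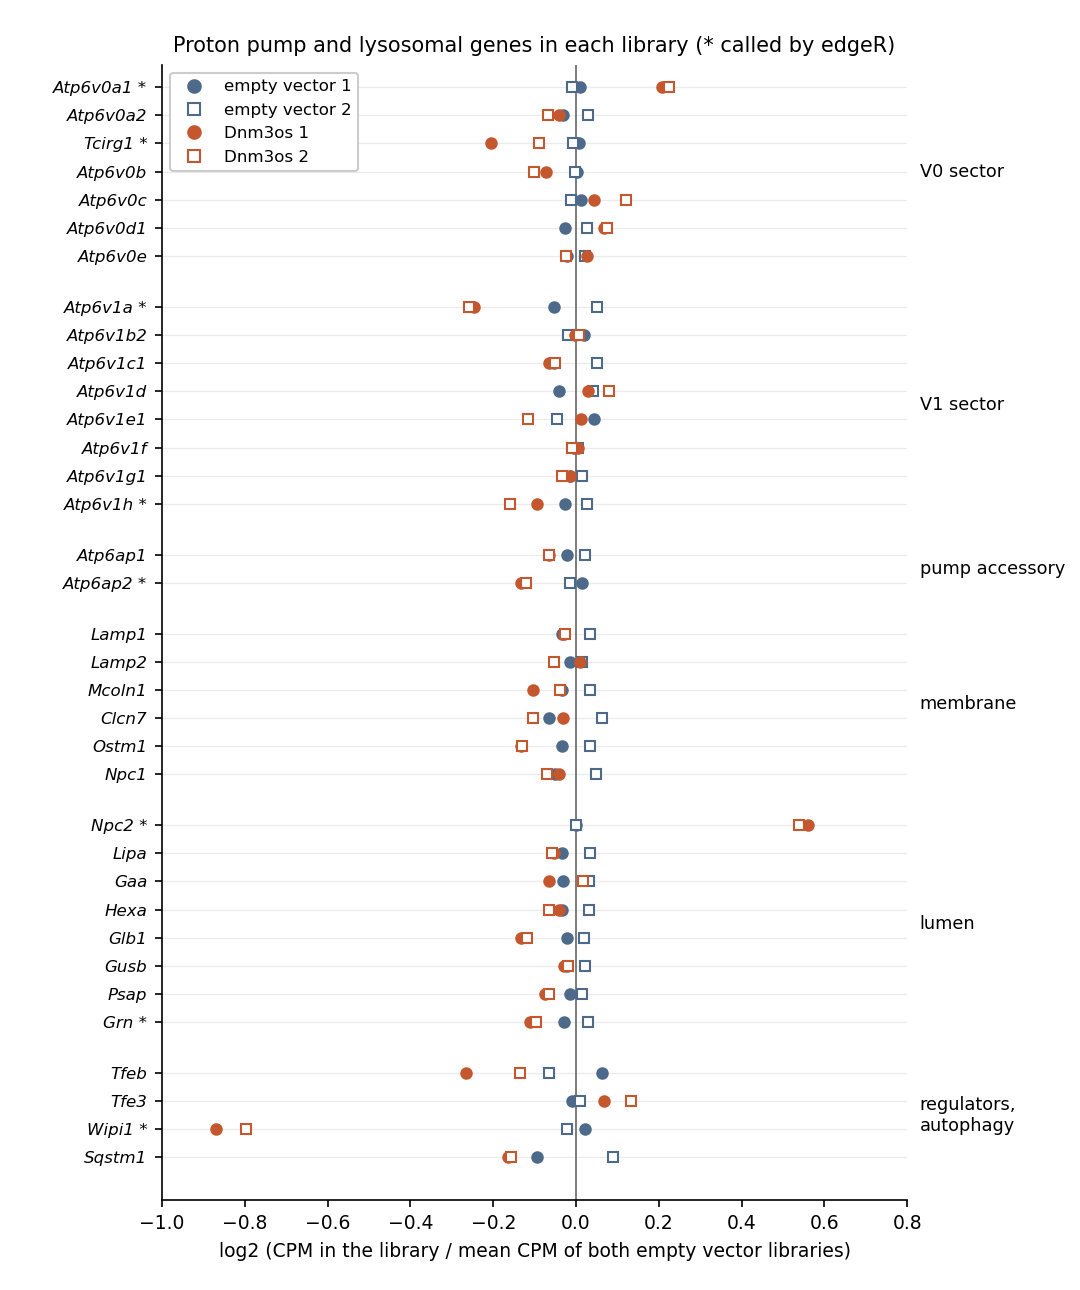
Level of each of the 35 genes in each of the 4 libraries, as log2 of its CPM over the mean of the empty vector libraries, with genes in rows by role, 1 point per library and a star at called genes. Npc2 stands far to the right in both Dnm3os libraries and Wipi1 far to the left, while most other genes lie close to 0 in all libraries.

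Of the 6 lower calls, that of Atp6v1a was kept with each library left out in turn, and the other 5 were each lost with at least 1 library left out. The count lower was 2 without Dnm3os library 1 and 2 without Dnm3os library 2, where the share of all genes called lower also went down, to 3.41% and 2.78%. Leaving out empty vector library 1 gave 5 lower (5.88% of all genes), and leaving out its partner library 2 gave 4 (4.77% of all genes). DESeq2 called 2 genes higher and 3 lower, against 3.03% and 2.73% of all genes. Counted by groups whose values do not overlap, 5 genes lay higher with Dnm3os and 18 lower, against 26.2% and 25.0% of all genes, and 12 overlapped. The median log2 fold change of the 35 genes was -0.05 beside 0.00 for all genes tested, with 8 genes above 0 and 27 below. That small shift moved with empty vector library 2, in which 25 of the 35 genes were higher than in empty vector library 1: it was -0.02 without library 2 and -0.09 without library 1.

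**Figure D2:**
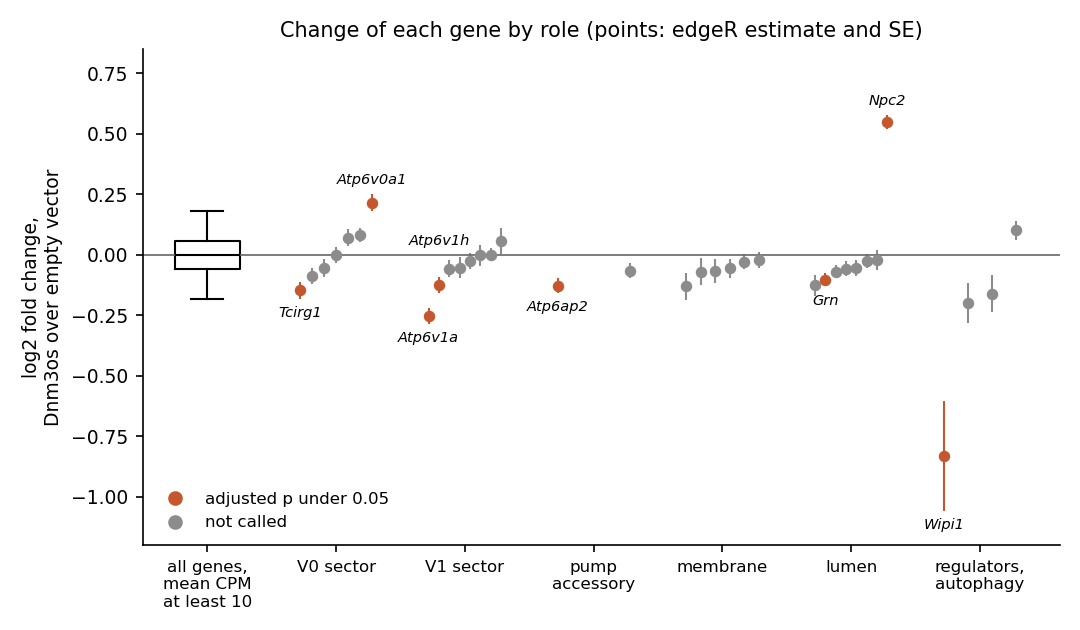
Log2 fold change (Dnm3os over empty vector) with its SE for each gene, grouped by role and ordered by value, with called genes in orange. The box shows the quartiles and the 5th to 95th percentile over genes whose mean level reached 10 CPM. Most points lie a little below 0, Npc2 is at 0.55 and Wipi1 at -0.83.

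Of the 17 pump genes, 1 rose, 4 fell and 12 had no call, with 2 called lower without Dnm3os library 1, 2 without Dnm3os library 2 and 2 by DESeq2. Over all genes tested, 6.48% were called higher and 5.77% lower, and DESeq2 called 3.03% and 2.73%. In the V0 sector, which carries the protons through the membrane, 1 gene rose and 1 fell out of 7, with a median log2 fold change of 0.00. Atp6v0a1, the a1 isoform, had 91.24 and 89.89 CPM in the empty vector libraries and 104.6 and 105.8 CPM in the Dnm3os libraries. Both Dnm3os libraries lay above both empty vector libraries, and the group means were 90.6 ± 0.950 and 105 ± 0.863 CPM (SD, n = 2 each). The rise was 1.16-fold, a log2 fold change of 0.22 ± 0.04 (SE; adjusted p = 0.000149 by edgeR). It was called in all 14 alternative settings tried, at 0.21 to 0.22. The gene overlaps the microRNA gene Mir6928 in the RefSeq table, which had 0.880 to 1.40 CPM.

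Tcirg1, the a3 isoform, went the other way. It had 385.0 and 380.6 CPM in the empty vector libraries and 331.8 and 360.0 CPM in the Dnm3os libraries. The groups did not overlap, but the Dnm3os libraries differed from each other (383 ± 3.08 against 346 ± 19.95 CPM, SD, n = 2 each). Its log2 fold change was -0.15 ± 0.04 (adjusted p = 0.00786 by edgeR), and the call was lost without Dnm3os library 1, at -0.09 (adjusted p = 0.213 by edgeR). Atp6v0a2, the a2 isoform found in Golgi and endosomes, had 91.61 and 95.55 CPM against 90.95 and 89.33 CPM and did not pass (-0.05; adjusted p = 0.448 by edgeR).

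As shares of the counts on these a subunit genes, Atp6v0a1 took 16.1 and 15.9% in the empty vector libraries and 19.8 and 19.1% in the Dnm3os libraries. Tcirg1 took 67.8 and 67.2% and then 62.9 and 64.9%. The share of Atp6v0a2 overlapped between groups, at 16.1 and 16.9% against 17.2 and 16.1%. The ratio of Atp6v0a1 to Tcirg1 counts was 0.237 and 0.236 in the empty vector libraries and 0.315 and 0.294 in the Dnm3os libraries, 1.29 times as high on average. These shares and this ratio were chosen after the values were seen, are not corrected for transcript length and carry no test.

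**Figure D3:**
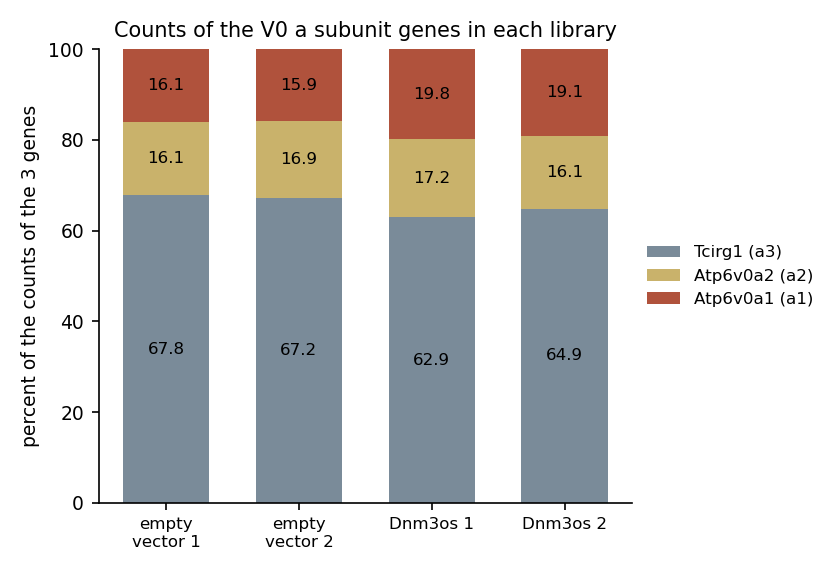
Share of the counts on Atp6v0a1, Atp6v0a2 and Tcirg1 taken by each, in percent, in each of the 4 libraries. The a1 share is 15.9 to 16.1% in the empty vector libraries and 19.1 to 19.8% in the Dnm3os libraries, and the a3 share is lower in the latter.

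The 4 other V0 genes did not pass the test. Atp6v0c, the proton-carrying c subunit, had 559.1 and 549.2 CPM against 571.6 and 602.1 CPM (0.08; adjusted p = 0.0776 by edgeR). Atp6v0b, the related c'' subunit, had 230.7 and 229.8 CPM against 219.0 and 214.6 CPM (-0.09; adjusted p = 0.0752 by edgeR). The groups of neither gene overlapped, and they lay apart in opposite directions. The pseudogene Atp6v0c-ps2 had nearly the same mean level over the libraries as Atp6v0c, 570.478 against 570.527 CPM. Reads may be shared between them, so the Atp6v0c value cannot be assigned to that gene alone. Atp6v0d1, the stalk subunit d1, had 102.5 and 106.2 CPM against 109.3 and 109.8 CPM (0.07; adjusted p = 0.232 by edgeR), and Atp6v0e lay between 134.9 and 139.7 CPM in all libraries with overlapping groups (0.00; adjusted p = 0.988 by edgeR).

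In the V1 sector, which hydrolyses ATP, 0 of 8 genes rose and 2 fell, against 6.48% and 5.77% of all genes. The other 6 did not pass. No V1 gene was higher at an unadjusted p below 0.05 in edgeR (0 of 8), against 1586 of all 13136 genes tested. The count of V1 genes called higher was 0 by DESeq2 and 0 by limma-voom as well. Atp6v1a, the catalytic A subunit, fell most: it had 472.7 and 507.6 CPM in the empty vector libraries and 413.1 and 409.6 CPM in the Dnm3os libraries. Every Dnm3os value lay below every empty vector value, with means of 411 ± 2.43 and 490 ± 24.66 CPM (SD, n = 2 each). Its log2 fold change was -0.25 ± 0.03 (adjusted p = 7.89e-06 by edgeR), and it was called in all 14 alternatives, at -0.31 to -0.20. Its partner in the ATPase head, Atp6v1b2, did not pass, at 530.8 and 516.8 CPM against 522.5 and 526.2 CPM, with overlapping groups (0.00; adjusted p = 0.986 by edgeR). Atp6v1b2 overlaps the gene Slc18a1 in the RefSeq table, which had 9.106 to 10.07 CPM. The ratio of Atp6v1a to Atp6v1b2 counts was 0.891 and 0.982 in the empty vector libraries and 0.790 and 0.778 in the Dnm3os libraries, a pair chosen after the values were seen and given with no test.

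Atp6v1h, the H subunit that couples and silences the pump, had 165.5 and 171.9 CPM against 158.1 and 151.1 CPM. Its log2 fold change was -0.13 ± 0.03 (adjusted p = 0.0138 by edgeR). That call was lost by DESeq2 (adjusted p = 0.1), with isoforms summed (0.0505) and when empty vector library 2 (0.0925) or Dnm3os library 2 (0.263) was left out. The stator subunit genes Atp6v1c1, Atp6v1e1 and Atp6v1g1 and the central stalk genes Atp6v1d and Atp6v1f lay between -0.06 and 0.06 on the log2 scale, and none passed. Atp6v1f, for example, was at 57.61, 58.04, 58.05 and 57.47 CPM in empty vector 1 and 2 and Dnm3os 1 and 2. The summed level of the 8 V1 genes was 1723.4 and 1766.8 CPM in the empty vector libraries and 1646.5 and 1632.6 CPM in the Dnm3os libraries, a change of -6.05%. Most of that is Atp6v1a: without it the sum was 1250.7 and 1259.2 CPM against 1233.4 and 1223.0 CPM, a change of -2.13%. The sum of the 7 V0 genes overlapped between groups, at 1590.4 to 1595.3 against 1566.9 to 1616.5 CPM. Atp6v0c, whose reads may be shared with its pseudogene, is part of that V0 sum.

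Of the accessory subunits, Atp6ap2, also called the prorenin receptor, fell and Atp6ap1 did not pass. Atp6ap2 had 184.4 and 181.0 CPM in the empty vector libraries and 166.7 and 168.1 CPM in the Dnm3os libraries. The groups were apart, and the log2 fold change was -0.13 ± 0.03 (adjusted p = 0.00814 by edgeR). By DESeq2 its adjusted p was 0.0547, and the edgeR call did not survive leaving out empty vector library 1 (0.065) or either Dnm3os library (0.0803 without the first, 0.0759 without the second). Atp6ap1, needed to assemble the pump, had 251.8 and 259.7 CPM against 244.3 and 244.5 CPM (-0.07; adjusted p = 0.215 by edgeR).

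**Figure D4:**
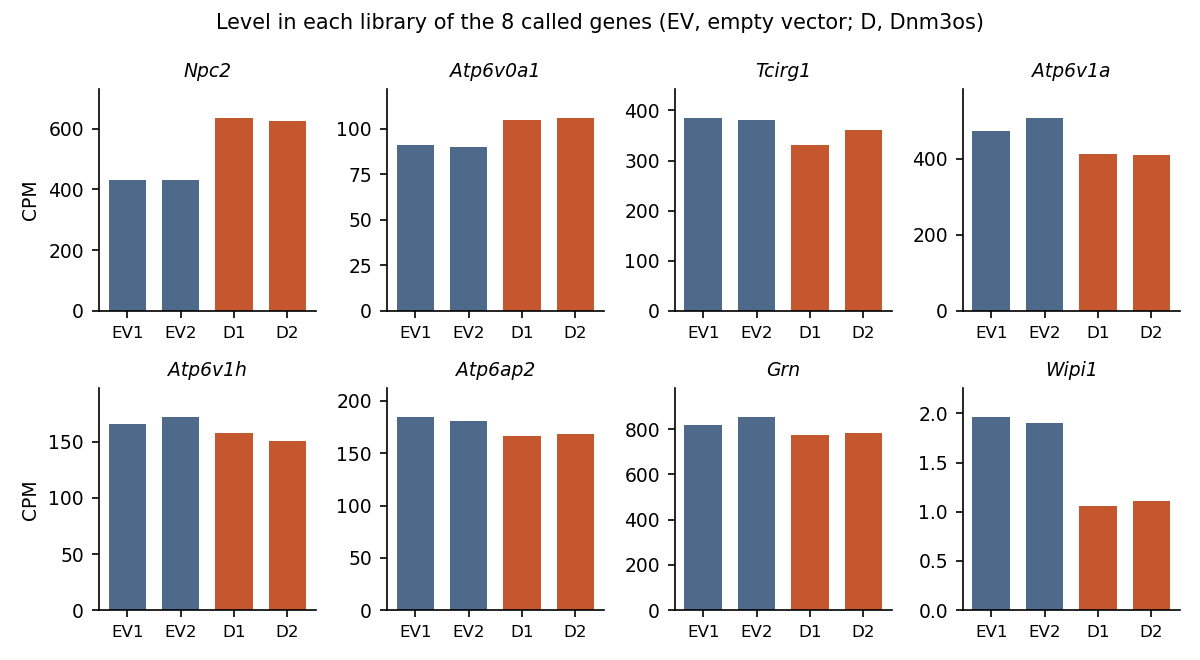
CPM of the 8 called genes, 1 bar per library (EV, empty vector; D, Dnm3os), with a separate linear axis from 0 for each gene. Npc2 goes from about 430 CPM to between 625 and 635 CPM, and in no panel do the groups overlap.

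Markers of osteoclasts, cells that use the a3 subunit to resorb bone, also differed between the groups. Of 10 osteoclast markers, 8 had at least 10 counts in every library and Calcr was at 0, and their summed level was 658 to 661.8 CPM in the empty vector libraries and 448.6 to 455 CPM in the Dnm3os libraries. Ctsk, the collagen-degrading cathepsin K, had 208.1 and 221.6 CPM against 76.16 and 74.58 CPM (-1.51 ± 0.04; adjusted p = 1.76e-18 by edgeR). Atp6v0d2, the d2 subunit of osteoclast pumps, had 55.22 and 58.95 CPM against 45.0 and 44.24 CPM (-0.35 ± 0.05; adjusted p = 1.21e-05 by edgeR). Both genes were lower in each Dnm3os library than in any empty vector library, and both were called in all 14 alternatives. The fusion gene Ocstamp, with 15.39 and 14.88 CPM against 6.89 and 8.19 CPM, also fell (adjusted p = 4.08e-08 by edgeR), as did the fusion gene Dcstamp (-0.25 ± 0.04) and the transcription factor Nfatc1 (-0.41 ± 0.04), with adjusted p of 0.000237 and 5.44e-08 by edgeR. The list did not move one way: Mmp9, a gelatinase, rose (0.48 ± 0.05; adjusted p = 2.98e-07 by edgeR), as did Acp5, the tartrate-resistant phosphatase (0.20 ± 0.06; adjusted p = 0.0416 by edgeR), a call lost by DESeq2 (0.338) and with any of the 4 libraries left out (adjusted p of 0.0924 to 0.31 by edgeR). These osteoclast genes other than Atp6v0d2 were named after their values were seen, and their part in the pump result was not tested. The ratio of Atp6v0d2 to Atp6v0d1 counts was 0.539 and 0.555 in the empty vector libraries and 0.412 and 0.403 in the Dnm3os libraries, also chosen after the values were seen and not tested.

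Of the 6 lysosomal membrane genes, 0 were called higher and 0 lower, against 6.48% and 5.77% of all genes tested. The median log2 fold change of the 6 was -0.06. At an unadjusted p below 0.05, edgeR gave 0 higher and 1 lower (Ostm1), against 1586 and 1464 of all 13136 genes tested. Neither DESeq2 nor limma-voom called any (0 and 0). Lamp1, the main glycoprotein of the lysosomal coat, had 568.4 and 596.3 CPM against 570.9 and 571.9 CPM (-0.03; adjusted p = 0.66 by edgeR), and its partner Lamp2, which also serves chaperone-mediated autophagy, had 214.0 and 218.5 CPM against 217.8 and 208.3 CPM (-0.02; adjusted p = 0.775 by edgeR). The groups of both genes overlapped.

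Clcn7 and Ostm1 form the chloride-proton exchanger of the lysosome. Clcn7 had 53.71 and 58.69 CPM against 55.02 and 52.29 CPM (-0.07; adjusted p = 0.485 by edgeR). Ostm1 had 32.65 and 34.24 CPM against 30.51 and 30.58 CPM, with groups apart but no call (-0.13; adjusted p = 0.17 by edgeR). The calcium channel Mcoln1 lay between 36.03 and 39.64 CPM and the cholesterol exporter Npc1 between 93.89 and 102 CPM in the 4 libraries, and neither passed.

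Among the 8 lumenal genes, 1 rose and 1 fell, against 6.48% and 5.77% of all genes tested, and 6 did not pass. Npc2 binds cholesterol freed from lipoproteins in the lumen and hands it to Npc1. It had 430.7 and 430.1 CPM in the empty vector libraries and 634.8 and 625.2 CPM in the Dnm3os libraries. The spread within each group was far smaller than the gap between them, with means of 430 ± 0.462 and 630 ± 6.83 CPM (SD, n = 2 each). Npc2 was 1.46-fold higher, a log2 fold change of 0.55 ± 0.03 (adjusted p = 9.91e-13 by edgeR), and was called in all 14 alternatives, at 0.54 to 0.56. The 5th to 95th percentile of the log2 fold change over genes whose mean level reached 10 CPM was -0.18 to 0.18.

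Lipa and Npc1, which act on the same cholesterol before and after Npc2, did not pass the test. Npc1 had 95.16 and 102 CPM against 95.86 and 93.89 CPM (-0.05; adjusted p = 0.462 by edgeR). It overlaps the gene Rmc1 in the RefSeq table, which had 39.81 to 43.6 CPM. Lipa, the acid lipase that frees cholesterol from its esters, had 345.7 and 362.3 CPM against 341.1 and 339.9 CPM (-0.06; adjusted p = 0.312 by edgeR). The ratio of Npc2 to Npc1 counts went from 4.53 and 4.22 in the empty vector libraries to 6.62 and 6.66 in the Dnm3os libraries, a pair chosen after the values were seen and given with no test.

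Grn, whose product progranulin is cut into granulins in the lysosome, had 819.8 and 852.5 CPM against 774.1 and 782.6 CPM. It fell by a small amount, -0.10 ± 0.03 on the log2 scale (adjusted p = 0.0122 by edgeR), and its call was lost with isoforms summed (0.0506) and on leaving out empty vector library 2 (0.153), Dnm3os library 1 (0.155) or its partner library 2 (0.109). Psap, the saposin precursor that binds progranulin, had 732.2 and 748.1 CPM against 702.7 and 707.5 CPM and did not pass (-0.07; adjusted p = 0.0958 by edgeR). Glb1, the beta-galactosidase, had 59.69 and 61.42 CPM against 55.26 and 55.77 CPM (-0.12; adjusted p = 0.0674 by edgeR). With isoforms summed (adjusted p = 0.0362 by edgeR) and with no filter on low counts (0.0456), Glb1 was called lower. Glb1 overlaps the gene Tmppe in the RefSeq table, which had 33.11 to 35.72 CPM.

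The glucosidase gene Gaa, the hexosaminidase gene Hexa and the glucuronidase gene Gusb lay at -0.02, -0.05 and -0.02 on the log2 scale, with adjusted p of 0.83, 0.36 and 0.719 by edgeR. Their SEs, like those of all 27 genes that did not pass, were between 0.03 and 0.08, and 22 of these 27 had an estimate within 0.1 of 0. Without Npc2, the summed level of the lumenal genes was 2711.7 and 2805.6 CPM in the empty vector libraries and 2622.2 and 2639.8 CPM in the Dnm3os libraries, a change of -4.63%. With Npc2 the change was 2.26%.

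Of the regulators and autophagy genes, 0 rose, Wipi1 fell and 3 did not pass, against 6.48% higher and 5.77% lower over all genes. Tfe3 was higher at an unadjusted p below 0.05 in edgeR, as were 1586 of all 13136 genes tested. The count of these regulators and autophagy genes called higher was 0 by DESeq2 and 0 by limma-voom. Wipi1, which reads the lipid signal of forming autophagosomes, had 78 and 67 counts in the empty vector libraries and 31 and 38 counts in the Dnm3os libraries, or 1.96 and 1.90 CPM against 1.06 and 1.11 CPM. It was thus 1.78-fold higher in the empty vector libraries (log2 fold change -0.83 ± 0.23; adjusted p = 0.0163 by edgeR). The call rests on these few counts: DESeq2 gave an adjusted p of 0.25, and leaving out empty vector library 1 (0.076), Dnm3os library 1 (0.11) or its partner library 2 (0.111) ended it.

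Tfeb had 14.77 and 13.52 CPM against 11.76 and 12.87 CPM (-0.20 ± 0.08; adjusted p = 0.149 by edgeR). Tfe3 had 74.64 and 75.64 CPM against 78.78 and 82.39 CPM (0.10 ± 0.04; adjusted p = 0.106 by edgeR). The groups of both genes were apart, in opposite directions, and neither passed. Sqstm1, the p62 receptor that delivers cargo to autophagosomes, had 895.8 CPM in empty vector library 1, 1017 CPM in empty vector library 2, and 853.1 and 858.3 CPM in the Dnm3os libraries. Its empty vector libraries lay further apart than the lower of them from the Dnm3os libraries, and the fit gave -0.16 ± 0.08 (adjusted p = 0.378 by edgeR). Without empty vector library 1 the estimate was -0.25, and without empty vector library 2 it was -0.07. Such a fit takes the gene's own spread from the Dnm3os libraries alone, so it does not measure the empty vector spread. With the replicate number as a block Sqstm1 was called at -0.16 (adjusted p = 0.000869 by edgeR).

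Of the 9 genes whose promoter window holds the CLEAR core, shown above, Atp6v1a fell, 0 rose and 8 did not pass. At an unadjusted p below 0.05 edgeR gave 0 of the 9 higher, against 1586 of all 13136 genes tested. DESeq2 called 0 of the 9 higher, and their log2 fold changes ran from -0.25 to 0.07 with a median of -0.07. Of the 20 genes whose window lacks it, 2 rose and 4 fell, against 6.48% and 5.77% of all genes tested. Among the 9, Lamp1, with 4 sites, was at -0.03, and Atp6v0e, with the palindrome TCACGTGA just after its start, was at 0.00.

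Transcript choice mattered little for the folds, though the calls of Atp6v1h, Grn and Glb1 changed in the fit with isoforms of all genes summed. Grn has 1 RefSeq row, so its own counts were the same in that fit. Of the 35 genes, 22 had 1 RefSeq row and 13 had several, 40 rows in all. The ratio of mean CPM, Dnm3os over empty vector, differed between the rows of a gene by at most 0.010. It was 1.161 to 1.167 over the 4 rows of Atp6v0a1 and 0.903 to 0.904 over the 3 rows of Tcirg1. Isoform rows hold overlapping reads, so this shows only that the choice of row does not set the fold.

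Further genes of the same organelle were read from 5 lists to place these values. Of 14 other pump and pump-assembly genes, 9 were tested, with 0 called higher and 2 lower, against 6.48% and 5.77% of all genes. At an unadjusted p below 0.05, 1 of these pump genes was higher in edgeR, against 1586 of all 13136 genes tested. DESeq2 called 0 of these pump genes higher. The genes that fell were Atp6v0d2, given above, and Dmxl1, of the complex that reassembles V1 with V0. Dmxl1 had 140.9 and 152.1 CPM against 111.4 and 116.4 CPM (-0.36 ± 0.04; adjusted p = 7.95e-07 by edgeR), with groups apart and a call in all 14 alternatives.

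**Figure D5:**
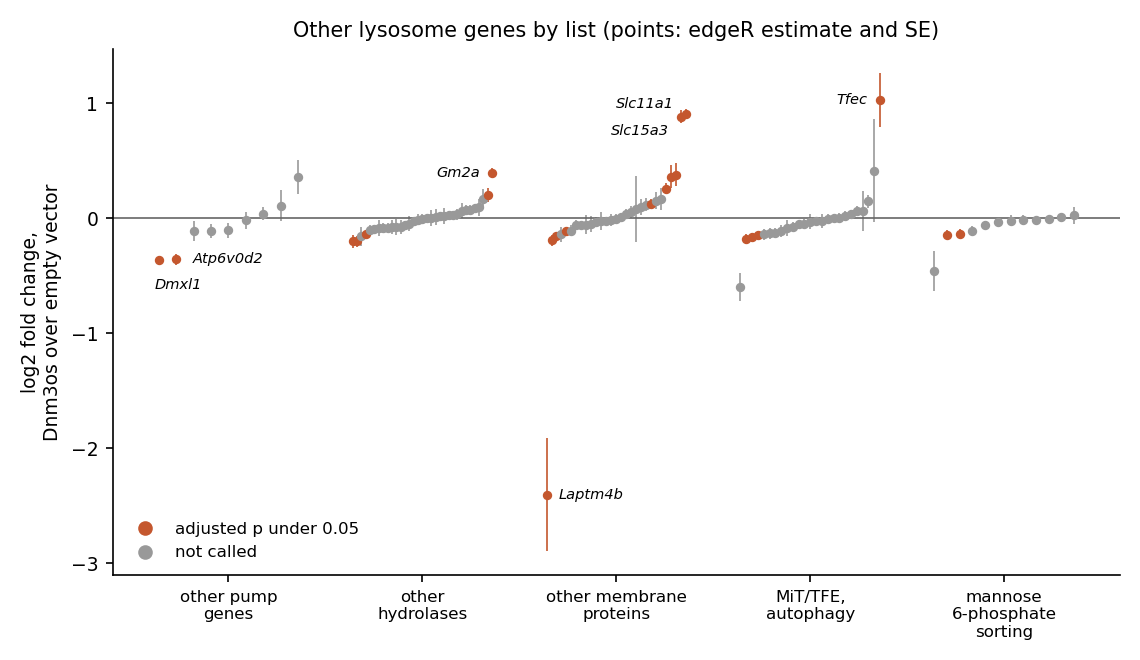
Log2 fold change (Dnm3os over empty vector) with its SE for every tested gene of 5 further lysosome lists, 1 point per gene ordered by value, with called genes in orange. Slc11a1 is at 0.91 and Slc15a3 at 0.88 among the membrane genes, and Laptm4b, whose fitted value rests on a handful of counts, lies lowest.

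Of 33 other hydrolases and lumenal genes tested, 2 rose and 3 fell, against 6.48% and 5.77% of all genes. The other 28 did not pass, and the median of the 33 was -0.01. Gm2a, the activator that lifts gangliosides to hexosaminidase, had 55.94 and 53.69 CPM against 73.53 and 70.72 CPM (0.39 ± 0.04; adjusted p = 5.67e-07 by edgeR) and was called in all 14 alternatives; the other that rose was Acp5. The peptidase Tpp1 (-0.14 ± 0.03), the mannosidase Manba (-0.20 ± 0.05) and the galactosidase Gla (-0.20 ± 0.06) fell, with adjusted p of 0.00529, 0.00727 and 0.0213 by edgeR. Without Dnm3os library 2 all of these falls were lost (adjusted p of 0.113 at -0.12, 0.234 at -0.12 and 0.173 at -0.19 by edgeR), and Gla was also lost without empty vector library 2 (0.242 at -0.13) and Dnm3os library 1 (0.106). DESeq2 called 1 of the list higher (Gm2a) and 1 lower (Tpp1).

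Of 29 other membrane genes tested, 6 rose and 4 fell, against 6.48% and 5.77% of all genes. The other 19 did not pass, and the median of the 29 was -0.01. Slc11a1, the macrophage iron and manganese exporter NRAMP1, had 44.25 and 43.95 CPM against 83.01 and 82.34 CPM, a 1.88-fold rise (0.91 ± 0.04; adjusted p = 1.89e-13 by edgeR). Slc15a3, a peptide and histidine transporter, had 27.27 and 26.58 CPM against 48.17 and 51.15 CPM, a 1.84-fold rise (0.88 ± 0.06; adjusted p = 4.94e-11 by edgeR). Both log2 fold changes were above that of Npc2, and both genes were called in all 14 alternatives. Mcoln2 (0.38 ± 0.10), Mfsd8 (0.36 ± 0.10) and Cd164 (0.13 ± 0.04) also rose, named after their values were seen. Their adjusted p were 0.0143, 0.0214 and 0.0397 by edgeR, and their calls were not followed over the alternatives. Laptm4b had 24 and 27 counts against 3 and 5 (adjusted p = 0.00156 by edgeR), and no fold is given at such counts. The others that fell, named after their values were seen, were the tetraspanin Cd63 (-0.15 ± 0.03), Cd68 (-0.11 ± 0.03) and the transporter Abca2 (-0.19 ± 0.05), with adjusted p of 0.00164, 0.0123 and 0.0122 by edgeR. Cd68 missed the threshold on leaving out empty vector library 1 (0.0631), Dnm3os library 1 (0.113) or its partner library 2 (0.0998). Abca2 missed it on leaving out empty vector library 2 (0.0584), Dnm3os library 1 (0.106) or its partner library 2 (0.0639). DESeq2 called 3 of the list higher and 3 lower.

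Among 25 further genes of the Tfeb family, its nutrient-sensing partners and autophagy, 1 rose and 3 fell, against 6.48% and 5.77% of all genes. The other 21 did not pass. Mitf, the relative of Tfeb, had 63.37 and 62.49 CPM against 54.78 and 56.32 CPM (-0.18 ± 0.04; adjusted p = 0.00671 by edgeR). Tfec, the family member of macrophages, went up from 38 and 32 to 58 and 63 counts (1.03 ± 0.23; adjusted p = 0.00422 by edgeR). The cargo receptors Nbr1 (-0.17 ± 0.04) and Tax1bp1 (-0.14 ± 0.03) fell, with adjusted p of 0.00479 and 0.00768 by edgeR. Mitf was lost without Dnm3os library 1 (0.0819) or 2 (0.0511), and Tfec without Dnm3os library 1 (0.0587) or 2 (0.0513). Nbr1 was lost without empty vector library 2 (0.0568), Dnm3os library 1 (0.0607) or 2 (0.0766), and Tax1bp1 without empty vector library 2 (0.136 at -0.09), Dnm3os library 1 (0.056) or 2 (0.178). DESeq2 called 0 of the list higher and kept none of these 4 calls (adjusted p of 0.0791 for Mitf, 0.108 for Tfec, 0.0536 for Nbr1 and 0.071 for Tax1bp1). The 1 gene it called lower was Gpnmb, named after its values were seen, at -0.60 (adjusted p = 0.00015 by DESeq2), which edgeR did not call (adjusted p = 0.153).

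Of 12 genes that tag hydrolases with mannose 6-phosphate or sort them, 0 rose and 2 fell, against 6.48% and 5.77% of all genes. The other 10 did not pass. Of the 12, 0 were higher at an unadjusted p below 0.05 in edgeR, against 1586 of all 13136 genes tested, and 0 higher by DESeq2. The phosphotransferase gene Gnptab had 119.8 and 117.4 CPM against 110.8 and 105.8 CPM (-0.13 ± 0.04; adjusted p = 0.0143 by edgeR), and the receptor gene Igf2r had 271 and 299.2 CPM against 263.1 and 253.4 CPM (-0.14 ± 0.04; adjusted p = 0.0379 by edgeR). The call of Gnptab was lost by DESeq2 (adjusted p = 0.124), with isoforms summed (0.0537 by edgeR) and without Dnm3os library 2 (at -0.10). That of Igf2r was lost by DESeq2 (adjusted p = 0.053), by limma-voom (0.0639) and with isoforms summed (0.0884 by edgeR). The Igf2r call was also lost on leaving out empty vector library 2 (at -0.07), Dnm3os library 1 (-0.17) or its partner library 2 (-0.12). DESeq2 called 0 of the list lower and limma-voom 1.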

How the data were processed

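Per the labels, poly(A) RNA was sequenced from TruSeq libraries. TopHat, Bowtie2, DESeq2 and the build mm9 stand in the submitters' processing notes. How reads were counted, with which annotation and strand setting, is not given in the sources used here, so reads of overlapping genes cannot be told apart. The authors deposited, per the file headers, raw read counts and a normalized signal for 35786 RefSeq transcripts. The deposited signal equals the count times 1 constant per library (0.8653, 0.9775, 1.1723 and 1.0058) and served only for those constants.

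Transcripts were named from the RefSeq table (35494) or GENCODE (183); 109 unnamed ones, with 0.246 to 0.276% of counts, were left out. Each of 24422 genes was represented by its transcript of highest mean count. After filterByExpr and TMM scaling (factors 0.9971 to 1.0031), edgeR 4.0.16 in R 4.3.3 tested each gene two-sided with its quasi-likelihood test (glmQLFTest on a robust glmQLFit), with Benjamini-Hochberg adjustment over 13136 genes and a threshold of 0.05. Each SE was taken as the size of the log2 fold change divided by the root of the F statistic. The script was tested on simulated data. The libraries of a group differed beyond counting error (chi-square over its degrees of freedom 5.91 in empty vector, 4.79 in Dnm3os).

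The 35 genes and the lists were chosen with earlier results of these data known. Named besides the 35 were Dnm3os and, from each further list, up to 4 called genes with the smallest adjusted p; other names were added after values were seen, and 1 gene that the rule names is not reported here. The alternatives were DESeq2 1.42.0's size factors, upper-quartile factors or library totals in place of TMM, DESeq2 and limma-voom (limma 3.58.1) in place of edgeR, no filter, a filter at 1 CPM in 2 libraries, isoforms summed, a replicate block, each library left out, and, chosen after seeing the data, the authors' constants. Where 1 library was left out, the remaining library of that group was assumed to vary like those of the other group.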

Additional observations from a re-analysis of the deposited data

How the results depend on the processing

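Over the 14 alternatives, the 35 genes gave 490 values beside those reported. Of these, 464 kept their side of the threshold and were not counted as turned, 17 lost a call, 4 gained one and 5 were counted as turned in direction. Estimates of Atp6v0e (-0.0251 to 0.0275), Atp6v1b2 (-0.0176 to 0.0162) and Atp6v1f (-0.0119 to 0.0062) also crossed 0, some with a change of scaling alone. Those crossings, of genes with main estimates of 0.0017, 0.0016 and -0.0016, were not counted as turns. Npc2, Atp6v0a1 and Atp6v1a were called in all 14. DESeq2 called 398 of all genes higher and 359 lower, 3 of the 35 genes lower and 2 pump genes lower; with no filter on low counts, 2 lumenal genes were lower. With 1 library left out at a time, the counts ranged from 434 to 802 for all genes higher, 372 to 784 for all genes lower, 2 to 5 for the 35 genes lower, 2 to 3 for pump genes lower and 0 to 1 for lumenal genes lower. These fits have fewer samples; otherwise the cause was not tested. All 5 counted turns were of uncalled genes with 1 library left out. Lamp1 ranged from -0.0664 to 0.0075 (above 0 without empty vector library 2). Gaa ranged from -0.0635 to 0.0160 (above 0 without Dnm3os library 1 and, at 0.0101, without empty vector library 2). Above 0 without Dnm3os library 2 were Atp6v1e1, which ranged from -0.1186 to 0.0126, and Lamp2, from -0.0558 to 0.0107. Scaling alternatives left the median of the 35 genes at -0.05 to -0.06.

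The labels number the libraries 1 and 2 in each group but do not say that a number marks anything shared. Deviations of same-numbered libraries from their group means had a correlation of -0.06 over 13136 genes, so the numbers were not taken to pair the libraries. With the replicate number as a block, 825 of all genes were higher and 751 lower, 2 and 7 of the 35 genes, 1 and 4 pump genes, 0 and 0 membrane genes and 1 and 1 lumenal genes; the gene gained was Sqstm1 (-0.16, adjusted p = 0.000869 by edgeR). Low counts limit the precision for Wipi1, Tfec and Laptm4b.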
